A study of Mus musculus with 6 samples.

Results

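The 36 genes described here are assembly factors of the respiratory chain, proteins that help to build complexes I to V of the mitochondrial inner membrane without being part of the finished enzymes. They were chosen by name, and all 36 were found, each on a single entry, among the 52550 genes of the deposited table. Left ventricles came from mice of the strain C57BL/6J at an age of 12 months. Of the 6 libraries, 3 carry the genotype label PGC1alpha overexpressed (group PKI) and 3 the label wild-type (group WT). PGC1alpha, encoded by Ppargc1a, is a transcriptional coactivator known for switching on genes of mitochondrial biogenesis, and the study asked how the heart transcriptome differs between these genotypes. Neither the construct nor the promoter behind the overexpression is stated in the labels. No label says that the numbered samples are different animals; each p-value reflects the spread between these libraries alone, and that spread may be technical.

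Each respiratory complex is put together from many parts, several of them encoded in the mitochondrial genome and made inside the organelle. Assembly factors hold partly built modules, insert copper, haem, flavin or iron-sulphur groups, modify subunits and clear failed products, and they leave before the enzyme works. Loss of one of them commonly gives an isolated deficiency of a single complex, and the heart, which lives on oxidative phosphorylation, is often affected.

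All values are FPKM, fragment counts divided by transcript length and by the size of the library, so levels of different genes are compared per length. The absolute depth of the libraries is unknown; low values gave relative depths of 0.901 to 0.928 in libraries labelled PKI and 0.831 to 1 in libraries labelled WT, with the first library labelled WT set to 1. Ppargc1a itself had 11.6, 11.8 and 11.4 FPKM in libraries labelled PKI, against 14.2, 12.8 and 12.4 FPKM in libraries labelled WT. The level of the gene named in the PKI label was thus below WT in every library (log2 change −0.16, SE 0.069, limma adjusted p = 0.0967; exact permutation p = 0.1, two-sided, n = 3 per group, the smallest that 20 arrangements allow). Over all 9907 tested genes the median log2 change was 0.21 as deposited and −0.0011 after dividing each library by its median-of-ratios size factor (1.09 to 1.12 for PKI, 0.906 to 0.926 for WT), here called scaling. After scaling the Ppargc1a change was −0.42 (limma adjusted p = 0.00663). Transcripts of the mitochondrial genome made up 55.3% to 55.6% of all FPKM in libraries labelled PKI and 57.3% to 58.8% in libraries labelled WT. Together with their nuclear copies they made up 78.0% to 78.2% in libraries labelled PKI and 81.8% to 82.3% in libraries labelled WT. Rescaling to the total without both, below called the total without mitochondrial transcripts, left an all-gene median of 0.046. Each direction is therefore given as deposited and after scaling. The tissue carried the markers of heart muscle: the 8 cardiomyocyte markers added up to between 6562 and 7017 FPKM in libraries labelled PKI and between 7100 and 7383 FPKM in libraries labelled WT. The atrial genes Myl7, Myl4 and Sln were lower in the first and second libraries labelled PKI than in the other 4 libraries.

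The sequence before the gene start is shown for 3 members to which the results return: Cox19, the member with the largest called change, and Cox10 and Timmdc1, which were lower after scaling and hold the ETS motif bound by GABP, a regulator of nuclear genes for respiration. The sequences are from RefSeq (GRCm38.p6), cover the 250 bases before the annotated start, and run in the direction of transcription, all on the minus strand. Cox19 lies at chr5:139345167-139345416, Cox10 at chr11:64079473-64079722 and Timmdc1 at chr16:38522664-38522913. Capitals mark the motif CCGGAAGT or, on the opposite strand, ACTTCCGG.
Cox19: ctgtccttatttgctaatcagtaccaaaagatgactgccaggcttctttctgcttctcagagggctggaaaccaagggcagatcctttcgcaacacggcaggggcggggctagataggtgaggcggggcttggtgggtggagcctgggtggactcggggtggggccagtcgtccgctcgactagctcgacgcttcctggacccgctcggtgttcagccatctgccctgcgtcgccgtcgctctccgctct
Cox10: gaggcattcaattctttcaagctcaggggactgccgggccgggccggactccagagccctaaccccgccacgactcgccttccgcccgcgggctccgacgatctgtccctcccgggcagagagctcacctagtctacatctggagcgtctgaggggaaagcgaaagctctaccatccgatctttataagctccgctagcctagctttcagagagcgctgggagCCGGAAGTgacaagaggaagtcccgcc
Timmdc1: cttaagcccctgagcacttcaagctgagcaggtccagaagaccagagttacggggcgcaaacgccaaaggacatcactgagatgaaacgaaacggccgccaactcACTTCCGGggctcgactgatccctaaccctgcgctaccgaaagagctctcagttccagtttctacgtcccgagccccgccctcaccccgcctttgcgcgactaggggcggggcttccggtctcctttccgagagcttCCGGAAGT
Cox19 held no match to any of the 3 motifs searched, Cox10 held 1 GABP motif starting 27 bases before the start, and Timmdc1 held 2, at 145 and 8 bases. Promoters were matched for 31 of the 36 members. Both strands were searched for GABP (CCGGAAGT), NRF1 (GCGCANGCG) and ERR (TNAAGGTCA) motifs, where N is any base; none contains another. GABP motifs stood in 4 of 31 members (12.9%: Bcs1l, Cox10, Cox16 and Timmdc1), against 3.23% of 27025 genes. An NRF1 motif stood in 4 of 31 (12.9%: Coa5, Ndufaf4, Ttc19 and Uqcc2), against 5.86% of genes, and an ERR motif in 0 of 31, against 1.30% of genes. These are matches of letters in a short window. GENCODE, for example, starts the Cox19 gene further upstream. The other members with a GABP motif, Bcs1l and Cox16, were called neither as deposited nor after scaling. Of the other members that fell after scaling, Ecsit and Atpaf1 held none of the motifs and Ttc19 held only an NRF1 motif. A link between motif and change was not tested.

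Of the 36 assembly factors, 26 passed the test neither as deposited nor after scaling. As deposited, 5 of 36 (13.9%) rose in libraries labelled PKI, beside 36.4% of all tested genes: Cox19, Ndufaf2, Coa5, Sco1 and Ndufaf3. None of the 36 fell as deposited by limma (0 at an adjusted p under 0.05, beside 2.96% of all tested genes). At an unadjusted limma p under 0.05 as deposited, 0 members were lower, beside 3.97% of all tested genes, and 8 (22.2%) were higher, beside 47.4%. By the same unadjusted threshold, 11 (30.6%) were lower after scaling, beside 15.4%, and 2 (5.56%) were higher, beside 15.5%. After scaling, 1 member (Cox19, 2.78%, beside 8.54% of all tested genes) rose and 5 (13.9%, beside 8.23%) fell: Ecsit, Cox10, Timmdc1, Ttc19 and Atpaf1. No member was called in opposite directions. Without the third library labelled WT, or without the first or the third labelled PKI, 3 members rose as deposited (Cox19, Ndufaf2 and Coa5). After scaling, leaving out a library gave 0 or 1 risen member and between 0 and 4 fallen ones, with 0 of either without the third library labelled WT.

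The median log2 change of the 36 was 0.09 as deposited, beside 0.21 for all tested genes, and −0.12 after scaling, beside −0.0011. As deposited 25 members lay above 0 and 11 below, and 28 lay under the all-gene median; after scaling 6 lay above 0 and 30 below, and 30 under the all-gene median. The sign of 19 members turned with scaling. Every library labelled PKI was above every library labelled WT for 8 members as deposited, beside 51.3% of all tested genes, and below for 1 (Ecsit), beside 4.53%. After scaling these counts were 2 (Cox19 and Ndufaf2), beside 18.6%, and 12, beside 18.4%. Sizes as deposited were small for most members. For 31 of 36 the mean FPKM in libraries labelled PKI was between 0.8 and 1.25 times that in libraries labelled WT. The members outside that range as deposited were Cox19, Ndufaf2, Cox18 and Sco1 above it and Ndufaf4 below it. After scaling only Cox19 (1.67) was above it, and Ndufaf2 (1.17), Cox18 (1.07) and Sco1 (1.05) were inside. Below it after scaling were Ndufaf4 (0.438), Ecsit (0.738), Cox10 (0.746), Ndufaf6 (0.765) and Ttc19 (0.795).

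**Figure D1:**
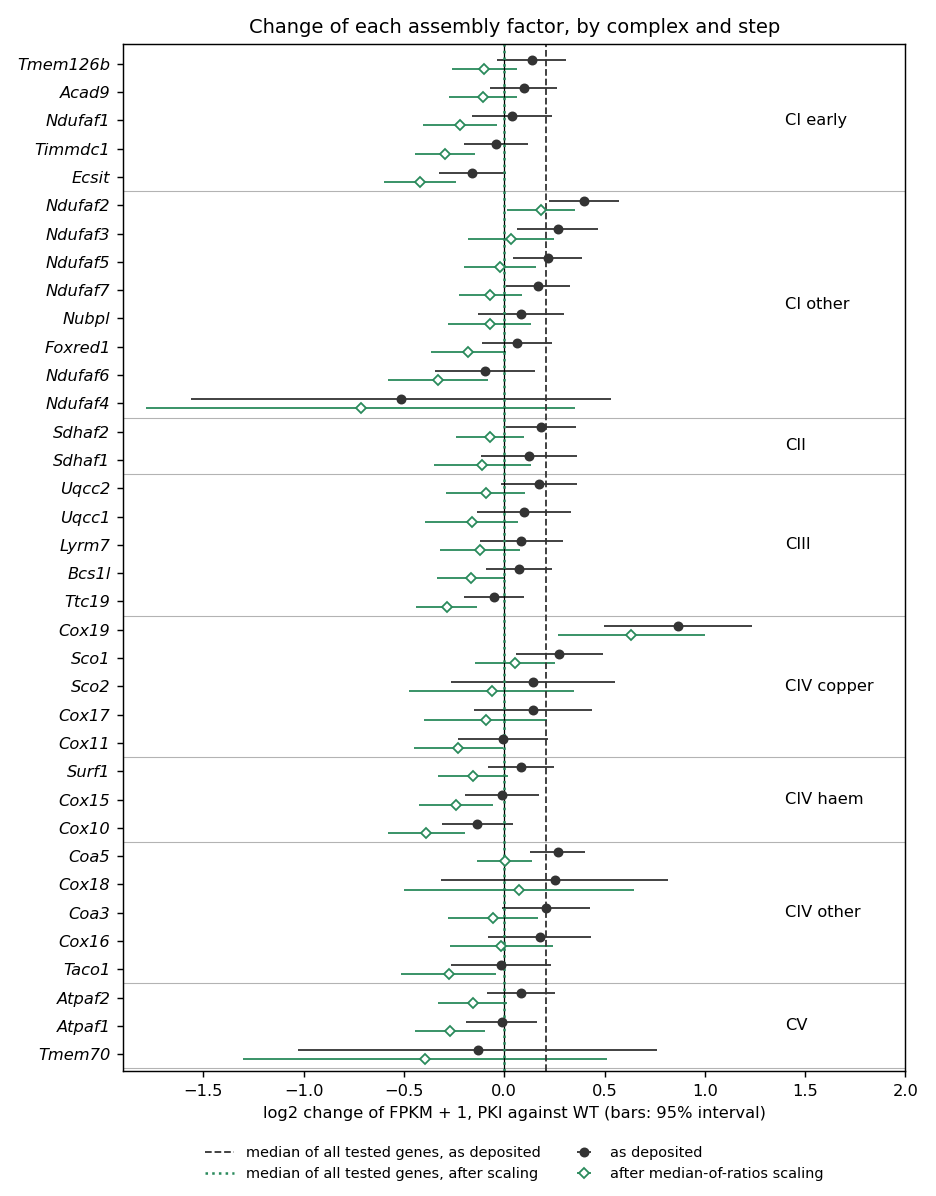
Log2 change of FPKM + 1 (x axis, PKI against WT, with 95% intervals) of each assembly factor, grouped by complex and step (CI to CV), as deposited (filled circles) and after median-of-ratios scaling (open diamonds); dashed and dotted lines mark the medians of all tested genes, 0.21 and −0.0011. Cox19 stands furthest to the right in both, at 0.87 and 0.63, most members sit left of the line that belongs to their scaling, and 19 members change sign between the scalings.

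Of the 5 factors of the early complex I intermediate, Ecsit and Timmdc1 fell, both only after scaling. Ndufaf1, Ecsit, Acad9 and Tmem126b form a membrane-bound assembly complex, and Timmdc1 joins the same membrane-arm intermediates. Ecsit (ENSMUSG00000066839, GRCm38 chromosome 9, 22072246 to 22085438, minus strand), which is also known as an adaptor in innate immune signalling, had 18.9, 16.9 and 19.5 FPKM in libraries labelled PKI, against 20.2, 20.6 and 21.3 FPKM in libraries labelled WT. All 3 values labelled PKI lay below all 3 labelled WT, a ratio of 0.892. The log2 change was −0.16 (SE 0.071, limma adjusted p = 0.111) as deposited and −0.42 (limma adjusted p = 0.0118) after scaling, so Ecsit fell only with scaling. Ecsit was the member called most often after scaling, in 5 of the 6 fits that left out a library, and in none without the third library labelled WT. Of its exonic bases, 598 lie opposite exons of Gm16845, and the library kit does not mark strand. Gm16845 had 0.0617 to 0.105 FPKM in libraries labelled PKI and 0 to 0.108 FPKM in libraries labelled WT.

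Timmdc1 (ENSMUSG00000002846, GRCm38 chromosome 16, 38498347 to 38522663, minus strand) had 12.8, 12.6 and 11.6 FPKM in libraries labelled PKI and 13.0, 13.0 and 12.1 FPKM in libraries labelled WT. These ranges overlapped, with a log2 change of −0.042 (limma adjusted p = 0.633). After scaling the values were 11.6, 11.3 and 10.6 in libraries labelled PKI, all under the 14.0, 14.4 and 13.4 in libraries labelled WT, and Timmdc1 fell (log2 change −0.30, limma adjusted p = 0.0222). That call was lost without the second or the third library labelled WT or the third labelled PKI. The other members of the early intermediate passed in neither analysis. Ndufaf1 had a log2 change of 0.038 as deposited and −0.22 after scaling, Tmem126b 0.14 and −0.10, and Acad9, a protein of the acyl-CoA dehydrogenase family, 0.10 and −0.11.

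Ndufaf2, Ndufaf3 and the 6 other complex I factors act on other modules or at later steps. Ndufaf2, a relative of subunit Ndufa12 that holds a late intermediate until that subunit takes its place, is at GRCm38 chromosome 13, 108002715 to 108158623, minus strand (ENSMUSG00000068184). Its level was 4.63, 4.54 and 4.05 FPKM in libraries labelled PKI and 3.12, 3.27 and 2.92 FPKM in libraries labelled WT. The groups stood apart by more than their spread (4.41 ± 0.314 against 3.10 ± 0.171, SD, n = 3 each, 1.42-fold), and Ndufaf2 rose as deposited (log2 change 0.40, SE 0.075, limma adjusted p = 0.00788). After scaling the groups still did not overlap, at 4.20, 4.07 and 3.71 in libraries labelled PKI and 3.36, 3.60 and 3.23 in libraries labelled WT, but the log2 change of 0.18 missed the threshold (limma adjusted p = 0.137). The library kit does not mark strand, and 1955 of the 2978 exonic bases of Ndufaf2 lie opposite exons of B230220B15Rik, so its level is uncertain. B230220B15Rik itself had 0.0241 FPKM in the second library labelled PKI and 0 FPKM in every other library.

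Ndufaf3 (ENSMUSG00000070283, GRCm38 chromosome 9, 108565537 to 108567434, minus strand) and Ndufaf4 bind each other and the early module that will carry the ubiquinone site. Ndufaf3 had 6.46, 5.27 and 6.16 FPKM in libraries labelled PKI, against 4.48, 4.99 and 4.87 FPKM in libraries labelled WT. The groups did not overlap and Ndufaf3 rose as deposited (1.25-fold, log2 change 0.27, SE 0.086, limma adjusted p = 0.0463), a call just inside the threshold that was kept only without the second library labelled PKI among the fits leaving out a library. After scaling its log2 change was 0.035 (limma adjusted p = 0.839).

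Its partner Ndufaf4 had 3.13, 1.69 and 2.9998 FPKM in libraries labelled PKI and 2.97, 9.74 and 2.03 FPKM in libraries labelled WT. The second library labelled WT was 4.81 times the lowest of its group, and this 1 value sets the mean of 4.91 ± 4.20 (SD, n = 3) in libraries labelled WT, against 2.60 ± 0.795 in libraries labelled PKI. With it the log2 change was −0.51 (SE 0.44, limma adjusted p = 0.375), and without that library it was 0.030 (limma adjusted p = 0.923).

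The remaining 5 complex I factors passed in neither analysis. Ndufaf5, which hydroxylates subunit Ndufs7, came nearest at a log2 change of 0.22 (limma adjusted p = 0.0527) as deposited and −0.020 after scaling. Ndufaf7, a methyltransferase, had 0.17 and −0.070. Foxred1, a flavoprotein of the middle and late steps, had 0.064 and −0.18, while Nubpl, which delivers iron-sulphur clusters, had 0.084 and −0.073. Ndufaf6 lay below 0 both ways, at −0.10 and −0.33 (limma adjusted p = 0.0785 after scaling). Foxred1 had the highest mean level of these 8, 7.60, 7.92 and 8.09 FPKM in libraries labelled PKI and 6.84, 7.68 and 7.98 FPKM in libraries labelled WT, with overlap. In all, 2 of 13 complex I factors (15.4%) rose as deposited, beside 36.4% of all tested genes. After scaling 2 (15.4%) fell, beside 8.23%.

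Neither complex II factor passed in either analysis. Sdhaf2, which attaches flavin to Sdha, had 16.3, 15.1 and 15.6 FPKM in libraries labelled PKI, against 14.7, 13.7 and 12.6 FPKM in libraries labelled WT. The groups did not overlap, at a log2 change of 0.18 (limma adjusted p = 0.0859), and after scaling it was −0.072. Sdhaf1, which helps to insert iron-sulphur clusters into Sdhb, was between 5.37 and 6.57 FPKM in libraries labelled PKI and between 4.71 and 5.92 FPKM in libraries labelled WT.

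Among the 5 complex III factors none rose, and Ttc19 fell after scaling only. Uqcc2, which with Uqcc1 guides newly made cytochrome b, was the most abundant of all 36 members per length, at 40.3, 39.3 and 37.8 FPKM in libraries labelled PKI and 32.0, 38.5 and 33.3 FPKM in libraries labelled WT. The groups overlapped in 1 WT value, and the log2 change was 0.18 (limma adjusted p = 0.118) as deposited and −0.091 after scaling. Uqcc1 had 0.10 and −0.16.

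Ttc19, which clears fragments of the Rieske protein Uqcrfs1 from complex III, is at GRCm38 chromosome 11, 62281473 to 62328451, plus strand (ENSMUSG00000042298). It had 6.30, 6.27 and 6.79 FPKM in libraries labelled PKI and 6.68, 6.61 and 6.86 FPKM in libraries labelled WT. These overlapped (log2 change −0.050, limma adjusted p = 0.539); after scaling they were 5.71, 5.62 and 6.21 in libraries labelled PKI and 7.22, 7.29 and 7.56 in libraries labelled WT, without overlap (log2 change −0.29, limma adjusted p = 0.0253). The call after scaling was kept without the first library labelled WT and without the third labelled PKI, and lost without any one of the other 4. Bcs1l, the ATPase that moves the Rieske protein into complex III, had a log2 change of 0.072 as deposited and −0.17 after scaling, and Lyrm7, the chaperone of the same protein, 0.084 and −0.12.

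Copper delivery to complex IV held the largest of the called changes, as deposited and after scaling. Cox17 is the copper donor of the intermembrane space, Sco1 and Sco2 pass copper to the subunit encoded by mt-Co2, Cox11 serves the copper site of the subunit encoded by mt-Co1, and Cox19 is a small soluble protein that works with Cox11, as known from yeast. Cox19 (ENSMUSG00000045438, GRCm38 chromosome 5, 139336189 to 139351418, minus strand) had 10.9, 7.26 and 8.57 FPKM in libraries labelled PKI, against 5.17, 3.64 and 4.43 FPKM in libraries labelled WT. The lowest value labelled PKI was above the highest labelled WT. Means were 8.92 ± 1.86 and 4.41 ± 0.765 FPKM (SD, n = 3 each), 2.02-fold, and Cox19 rose (log2 change 0.87, SE 0.16, 95% interval 0.50 to 1.24, limma adjusted p = 0.00688).

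Cox19 was the only member to rise both as deposited and after scaling, and it also rose under the total without mitochondrial transcripts. Scaled values were 9.90, 6.50 and 7.84 in libraries labelled PKI and 5.58, 4.02 and 4.89 in libraries labelled WT, 1.67-fold (log2 change 0.63, SE 0.16, limma adjusted p = 0.0337). As deposited the call held without each library in turn, with log2 changes of 0.73 to 0.99. After scaling it held without the first library labelled WT or the second labelled PKI and was lost without any one of the other 4. Its promoter, printed above, lies inside the GENCODE gene, and its exons share no bases with another annotated gene.

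Sco1 (ENSMUSG00000069844, GRCm38 chromosome 11, 67052670 to 67067070, plus strand) had 4.85, 5.13 and 4.27 FPKM in libraries labelled PKI, against 4.20, 3.62 and 3.44 FPKM in libraries labelled WT. The groups did not overlap and Sco1 rose as deposited (1.27-fold, log2 change 0.27, SE 0.092), but at the edge of the threshold (limma adjusted p = 0.0496). It was called only without the first library labelled WT among the fits leaving out a library, and its log2 change after scaling was 0.054 (limma adjusted p = 0.726).

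The other copper factors did not pass. Cox17 was between 6.07 and 6.81 FPKM in libraries labelled PKI and between 4.51 and 6.47 FPKM in libraries labelled WT, and Cox11 between 4.16 and 4.77 FPKM in libraries labelled PKI and between 4.12 and 5.24 FPKM in libraries labelled WT. Sco2 spread 1.89-fold within the libraries labelled PKI, at 3.27, 2.59 and 4.91 FPKM, against 3.04, 3.35 and 2.81 FPKM in libraries labelled WT. The library kit does not mark strand, and 829 exonic bases of Sco2 lie opposite exons of Ncaph2 (7.04 to 9.41 FPKM in libraries labelled PKI, 6.06 to 7.78 FPKM in libraries labelled WT), so its values are uncertain. The same holds for Cox11, of which 688 exonic bases lie opposite Tom1l1 (2.11 to 2.66 FPKM in libraries labelled PKI, 1.47 to 1.88 FPKM in libraries labelled WT). In all, 16 of the 36 members share exonic bases with another gene.

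Haem for complex IV is made by Cox10 and then Cox15, and Surf1 helps to place it in the subunit encoded by mt-Co1. Cox10 (ENSMUSG00000042148, GRCm38 chromosome 11, 63962627 to 64079468, minus strand) had 12.5, 12.3 and 13.0 FPKM in libraries labelled PKI and 12.7, 14.9 and 14.3 FPKM in libraries labelled WT. The groups overlapped only through the first library labelled WT (12.6 ± 0.336 against 14.0 ± 1.15 FPKM, SD, n = 3 each; log2 change −0.13, limma adjusted p = 0.184). After scaling they were apart, 11.4, 11.0 and 11.9 in libraries labelled PKI and 13.7, 16.4 and 15.8 in libraries labelled WT, and Cox10 fell (log2 change −0.39, limma adjusted p = 0.019). That call was kept only without the first library labelled WT among the scaled fits leaving out a library. Cox15, the next enzyme, had a log2 change of −0.0092 as deposited and −0.24 after scaling (limma adjusted p = 0.083), and Surf1 0.085 and −0.16.

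Some of the other complex IV factors concern synthesis and membrane insertion of the mitochondrially encoded subunits. Coa5, a small assembly factor of complex IV, is at GRCm38 chromosome 1, 37417084 to 37430103, minus strand (ENSMUSG00000026112). It had 29.6, 28.7 and 29.6 FPKM in libraries labelled PKI, against 24.6, 23.1 and 24.8 FPKM in libraries labelled WT. Spread was narrow in both groups (29.3 ± 0.479 against 24.2 ± 0.938 FPKM, SD, n = 3 each, 1.21-fold), and Coa5 rose as deposited (log2 change 0.27, SE 0.058, limma adjusted p = 0.0132), a call kept without each library in turn. The change of 0.27 is close to the all-gene median of 0.21, and after scaling that of Coa5 was 0.0027 (limma adjusted p = 0.982).

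Coa3, which holds newly made mt-Co1 product, was the most abundant complex IV factor per length, at 33.4, 27.1 and 29.5 FPKM in libraries labelled PKI and 26.4, 23.7 and 27.3 FPKM in libraries labelled WT. The groups overlapped by 1 value (log2 change 0.21, limma adjusted p = 0.113), and after scaling the log2 change was −0.056. Taco1, which promotes translation of mt-Co1, had −0.017 and −0.28. Of the exonic bases of Cox16, 2130 are shared with Gm20498 on the same strand, so the Cox16 level is uncertain. Gm20498 had 0.387 to 0.909 FPKM in libraries labelled PKI and 0.485 to 0.600 FPKM in libraries labelled WT. Cox16, which works on the product of mt-Co2, had log2 changes of 0.18 and −0.014. Cox18, which inserts a tail of that product into the membrane, varied 2.08-fold within the libraries labelled PKI (3.25, 1.56 and 2.16 FPKM) and 2.39-fold within the libraries labelled WT (1.96, 1.02 and 2.42 FPKM), more than the 1.29-fold between the means.

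Of the complex V factors, Atpaf1 fell after scaling only. Atpaf1 and Atpaf2 bind the beta and alpha subunits of the catalytic head of ATP synthase. Atpaf1 (ENSMUSG00000028710, GRCm38 chromosome 4, 115784812 to 115818828, plus strand) had 16.4, 14.1 and 14.5 FPKM in libraries labelled PKI and 15.9, 14.7 and 14.8 FPKM in libraries labelled WT, which overlapped (log2 change −0.013, limma adjusted p = 0.899). After scaling the values were 14.8, 12.7 and 13.3 in libraries labelled PKI and 17.1, 16.2 and 16.3 in libraries labelled WT (log2 change −0.27, limma adjusted p = 0.048). That call was kept only without the first library labelled PKI among the scaled fits leaving out a library. A stretch of 843 bases of Atpaf1 is identical to the gene Gm14117 (9.34 to 10.5 FPKM in libraries labelled PKI, 9.17 to 10.04 FPKM in libraries labelled WT), so reads of the 2 could be split, and the Atpaf1 level is uncertain. Atpaf2 had a log2 change of 0.085 as deposited and −0.16 after scaling.

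Tmem70, which builds the ring of c subunits, had 35.1, 11.9 and 35.9 FPKM in libraries labelled PKI and 30.1, 25.6 and 26.5 FPKM in libraries labelled WT. The highest library labelled PKI had 3.02 times the level of the second, and both others were above all libraries labelled WT. With all libraries the log2 change was −0.13 (SE 0.38, limma adjusted p = 0.789) as deposited and −0.40 (limma adjusted p = 0.54) after scaling. Without the second library labelled PKI it was 0.37 as deposited (limma adjusted p = 0.026) and Tmem70 was called higher, so its direction as deposited rests on that library. In the scaled fit without that library Tmem70 was not called.

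**Figure D2:**
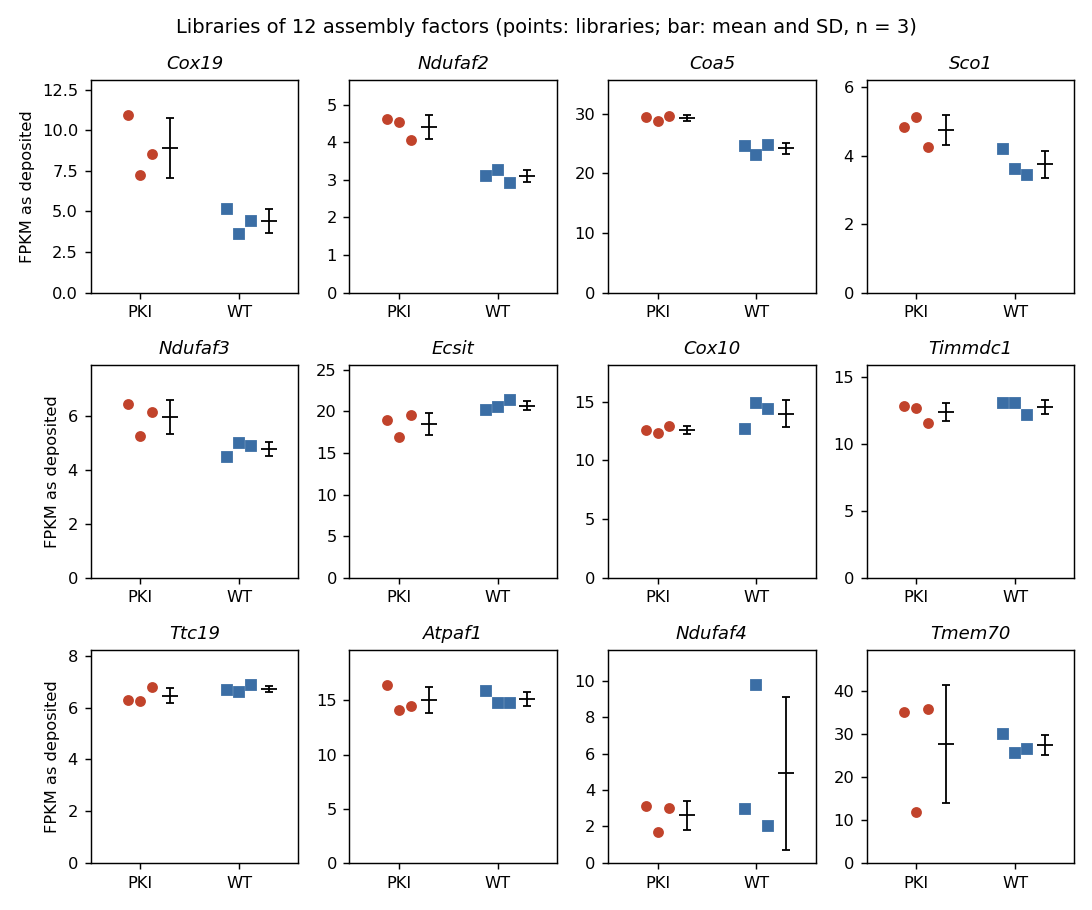
FPKM as deposited (y axis, from 0) in each library of the 10 members called as deposited or after scaling, and of Ndufaf4 and Tmem70; points are libraries (PKI left, WT right), bars the mean and SD of 3. Cox19, Ndufaf2, Coa5, Sco1 and Ndufaf3 show no overlap as deposited; the members that fell only after scaling, from Ecsit to Atpaf1, are less than 1.25-fold apart; and single libraries stand off in Ndufaf4 (WT, 9.74) and Tmem70 (PKI, 11.9).

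Levels of the members ranged from a mean of 1.36 FPKM for Nubpl to 36.9 FPKM for Uqcc2, with a median of 6.57. Means of at least 20 FPKM were found for 6 members, 10 to 20 for 6, 5 to 10 for 14 and under 5 for 10. The values of 31 members spanned less than 1.5-fold among the libraries of each group. The other 5 were Ndufaf4, Tmem70, Cox18, Sco2 and Cox19, the last with 1.51-fold among the libraries labelled PKI.

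**Figure D3:**
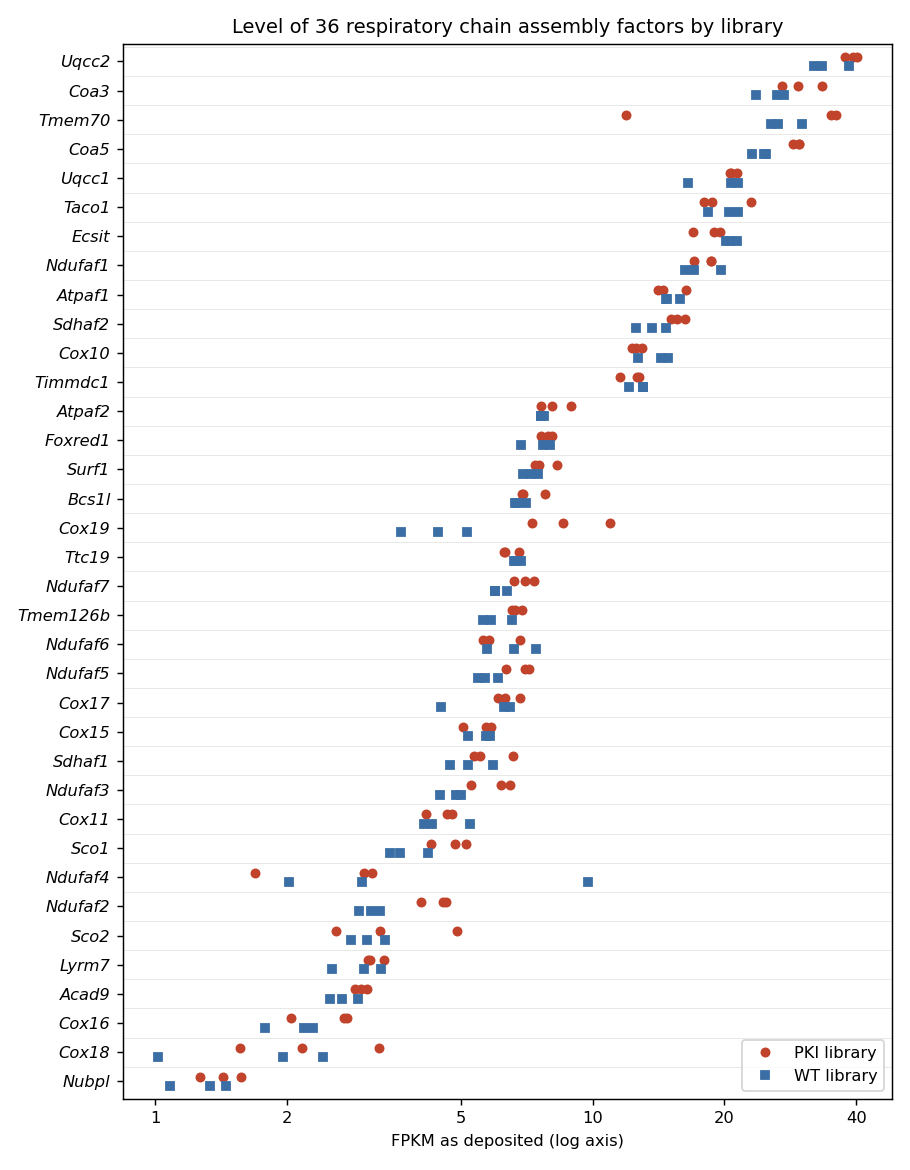
FPKM as deposited (x axis, log scale) of all 36 assembly factors in each library labelled PKI (circles) and WT (squares), ordered by mean level from Uqcc2 (36.9) at the top to Nubpl (1.36) at the bottom. Most members show interleaved symbols, and the displaced points are Ndufaf4 (WT, 9.74) and Tmem70 (PKI, 11.9).

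A ratio of members that act together does not depend on scaling. Among 7 such pairs, only Atpaf1 over Atpaf2 separated the groups, at 1.84, 1.86 and 1.79 in libraries labelled PKI and 2.08, 1.90 and 1.94 in libraries labelled WT. That difference of −0.11 on the log2 scale had an exact permutation p of 0.1 (two-sided, n = 3 per group, the smallest possible), 0.7 adjusted over the 7 pairs. Cox15 over Cox10 was 0.438 ± 0.0279 in libraries labelled PKI and 0.401 ± 0.0510 in libraries labelled WT (SD). Sco2 over Sco1, Uqcc2 over Uqcc1, Sdhaf2 over Sdhaf1, Cox17 over Cox11 and Ndufaf4 over Ndufaf3 overlapped too, and the adjusted exact p was between 0.7 and 1.0 for all 7. Groups of 3 cannot pass 0.05 in this test.

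The summed level of the factors was a few percent of that of the nuclear-encoded subunits of the same complex, a ratio that scaling also leaves alone. For complex II, the factors amounted to 3.34%, 2.93% and 3.07% of the subunits in libraries labelled PKI, against 2.79%, 2.53% and 2.46% in libraries labelled WT. Only this complex had no overlap; its factor sum was 1.13 times and its subunit sum 0.942 times that in libraries labelled WT. Complex IV had 4.02%, 4.24% and 3.83% in libraries labelled PKI and 3.91%, 3.23% and 3.39% in libraries labelled WT, with 1 value overlapping. The range for complex I was 2.74% to 2.86% in libraries labelled PKI and 2.80% to 2.94% in libraries labelled WT, with overlap. That for complex III was 3.78% to 3.86% in libraries labelled PKI and 3.26% to 3.85% in libraries labelled WT, again with overlap. Complex V spread from 1.15% to 2.06% in libraries labelled PKI, where Tmem70 carried the low value, and from 1.55% to 1.83% in libraries labelled WT. These sums were not tested.

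**Figure D4:**
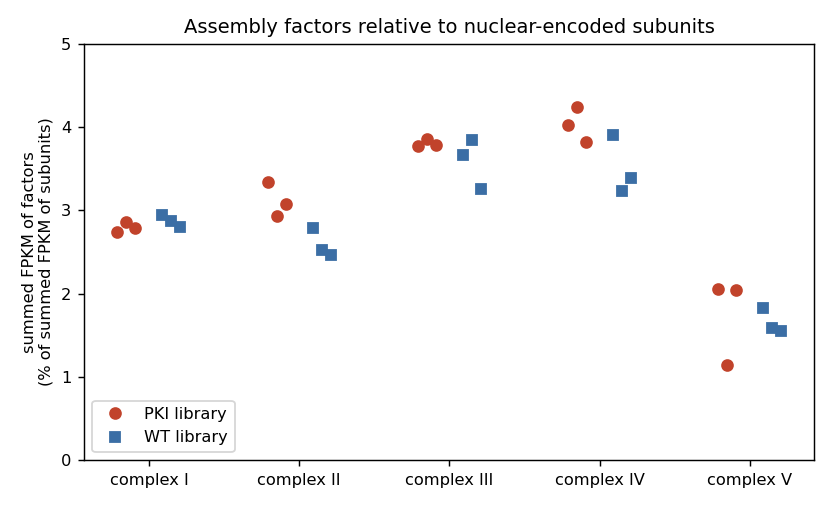
Summed FPKM of the assembly factors as a percentage of the summed FPKM of the nuclear-encoded subunits of the same complex (y axis), by complex (x axis), for each library labelled PKI (circles, left) and WT (squares, right). Only for complex II do the groups not overlap (2.93% to 3.34% in PKI, 2.46% to 2.79% in WT), and the low circle for complex V, 1.15%, is the library with low Tmem70.

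The subunits that these factors assemble also depended on scaling in their calls. Of 36 nuclear-encoded complex I subunits, 2 (5.56%) rose and 1 (2.78%) fell as deposited, and 0 rose and 10 (27.8%) fell after scaling. Over all 78 subunits tested, 7.69% rose and 7.69% fell as deposited, beside 36.4% and 2.96% of all tested genes, and 0% rose and 34.6% fell after scaling, beside 8.54% and 8.23%. Among the complex I subunits Ndufb3 and Ndufb6 had the smallest p. Their log2 changes were 0.25 and 0.29 as deposited (limma adjusted p = 0.0152 and 0.0282) and −0.024 and 0.018 after scaling. Of the 4 complex II subunits, Sdha fell both ways, at 196, 200 and 195 FPKM in libraries labelled PKI and 234, 248 and 245 FPKM in libraries labelled WT (log2 change −0.30, limma adjusted p = 0.0047), and all 4 fell after scaling, Sdhc among them (−0.10, limma adjusted p = 0.208 as deposited; −0.37, limma adjusted p = 0.00975 after scaling).

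Of 9 complex III subunits, 1 rose (Uqcrh, log2 change 0.19) and 1 fell (Uqcrc1, −0.29) as deposited, and 3 fell after scaling. Of 14 complex IV subunits, 3 rose, with Cox8a (0.52, limma adjusted p = 0.00724) and Cox6a1 (0.59, limma adjusted p = 0.013) having the smallest p, and 1 fell; after scaling 4 fell and 0 rose. Of 15 complex V subunits, Atp5b (−0.18) and Atp5a1 (−0.14) fell as deposited, and 6 fell after scaling. For complexes III, IV and V, 11.1%, 21.4% and 0% rose as deposited, beside 36.4% of all tested genes. The shares that fell were 11.1%, 7.14% and 13.3% as deposited, beside 2.96%, and 33.3%, 28.6% and 40% after scaling, beside 8.23%. By limma 0 of the listed subunits were higher after scaling at an adjusted p under 0.05. At an unadjusted limma p under 0.05 after scaling, 2 (2.56%) were higher, beside 15.5% of all tested genes, and 54 (69.2%) lower, beside 15.4%. Median log2 changes as deposited were 0.059, −0.067, 0.0048, 0.013 and 0.00047 for complexes I to V, all under the 0.21 of all tested genes.

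A further 37 genes of assembly and iron-sulphur supply that are not among the 36 were listed, and 32 were tested. Of these 11 (34.4%) rose and 2 (6.25%) fell as deposited, beside 36.4% and 2.96% of all tested genes, with a median of 0.18. After scaling 0 rose and 6 (18.8%) fell, beside 8.54% and 8.23% of all tested genes, with a median of −0.069. At an unadjusted limma p under 0.05 after scaling, 0 were higher, beside 15.5% of all tested genes, and 8 (25%) lower, beside 15.4%. Sdhaf4, a late complex II factor, had 19.6, 17.6 and 17.9 FPKM in libraries labelled PKI and 14.9, 14.5 and 13.5 FPKM in libraries labelled WT. The groups did not overlap and Sdhaf4 rose as deposited (1.28-fold, log2 change 0.34, limma adjusted p = 0.0114), at 0.082 after scaling. Higd1a, a small protein that associates with complex IV, rose as deposited by 0.48 (limma adjusted p = 0.0146) and was at 0.23 after scaling. The 2 that fell as deposited, named after their values were seen, were Slc25a3, the phosphate and copper carrier of the inner membrane (log2 change −0.21, −0.48 after scaling), and Pet117, a complex IV factor (−1.35, −1.47 after scaling). Pet117 was low throughout, at 1.37, 0.0095 and 1e-06 FPKM in libraries labelled PKI and 1.53, 3.09 and 2.84 FPKM in libraries labelled WT.

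Markers of fibroblasts, macrophages and red blood cells moved with the genotype labels as well. Fibroblast markers added up to 319 to 390 FPKM in libraries labelled PKI and 110 to 164 FPKM in libraries labelled WT, and 7 of 8 rose both as deposited and after scaling. Macrophage markers added up to 212 to 229 FPKM in libraries labelled PKI and 70.1 to 108 FPKM in libraries labelled WT, with 8 of 8 higher as deposited and 7 after scaling. All 5 red blood cell markers fell, at 274 to 338 FPKM in libraries labelled PKI against 380 to 538 FPKM in libraries labelled WT. Of the 8 cardiomyocyte markers 1 rose and 3 fell as deposited, and 6 fell after scaling. No marker of these lists was at 0 in all libraries. Over all tested genes, 36.4% rose and 2.96% fell as deposited, and 8.54% rose and 8.23% fell after scaling. Of the endothelial markers 3 of 8 (37.5%) rose as deposited, near the share of all tested genes, and 0 rose and 1 (12.5%) fell after scaling. Of the smooth muscle and pericyte markers 4 of 8 (50%) rose as deposited and 1 (12.5%) after scaling. Of the adipocyte markers 0 of 2 tested passed. Of the 4 atrial markers Nppa rose both ways, and the other 3 had log2 changes between −1.49 and −1.72 as deposited without passing. Those 3 were low in the first and second libraries labelled PKI: Myl7 had 6.61, 14.8 and 81.9 FPKM in libraries labelled PKI, against 74.3, 40.5 and 91.3 FPKM in libraries labelled WT. In bulk tissue, fewer cells of a type and less RNA per cell cannot be told apart, and the part of these shifts in the changes of the assembly factors was not tested.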

How the data were processed

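Trizol-extracted RNA of frozen hearts (1 µg) was made into libraries with a TruSeq kit, per the labels' protocols; that kit does not mark strand. The deposited values are FPKM made by the authors; the program behind them is not given in the sources used here. Per the submitters' processing notes, CASAVA, Bowtie 0.12.2 and mm9 were used, with no role given. Of the gene identifiers, 99.7% are in GENCODE M21 (GRCm38), from which positions were looked up without conversion between builds. A deposited summary by FPKM interval was not used.

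Groups follow the sample titles. The 9907 genes averaging 1 FPKM or more over the 6 libraries, among them all 36 members, were tested on log2(FPKM + 1), a scale that understates changes of low genes. The test was limma 3.58.1 (R 4.3.3, variance trend, two-sided, no block), adjusted by Benjamini-Hochberg over the 9907 genes, and a call is an adjusted p under 0.05. Fold values are ratios of mean FPKM. Ratios of members were compared by exact permutation (scipy 1.17.1). FPKM hold no counts, so no counting interval is given. The fit was tested on simulated data.

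Members and lists were chosen with earlier results of these data known. Values per library are given for members called as deposited or after scaling and for the most abundant of each role; of each pathway list the 2 genes with the smallest p are named. Values per library of Ndufaf4, Sco2 and Cox18 were added after they were seen, and the NRF1 motif was shortened after a first search. Scaling, pseudocount, filters, trend, replicate block and leaving out libraries were varied; leaving out libraries after scaling was added after seeing the data.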

Additional observations from a re-analysis of the deposited data

How the results depend on the processing

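Median-of-ratios scaling turned the direction of 19 of 36 members. Of the 36 assembly factors, 5 (13.9%) were higher and 0 lower as deposited, beside 36.4% and 2.96% of all tested genes. The counts were 1 (2.78%) and 5 (13.9%) after median-of-ratios scaling, beside 8.54% and 8.23%. Under the total without mitochondrial transcripts they were 1 and 3 of 36, beside the all-gene counts given below. Without a filter 3 were higher. Same-numbered libraries did not deviate together (correlations −0.104, 0.00115 and 0.0529), and unlike-numbered ones had correlations of −0.128 to 0.112. With 3 libraries per group these values cannot decide whether the numbers pair the libraries. The replicate block left 3 higher. Leaving out each library gave 3 to 6 higher and 0 lower as deposited, and 0 to 1 higher and 0 to 4 lower after scaling, with 0 of either without the third library labelled WT.

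Over all 9907 tested genes, 3609 (36.4%) were higher and 293 (2.96%) lower. The counts were 846 (8.54%) and 815 (8.23%) after median-of-ratios scaling, and 1019 and 603 of 9907 under the total without mitochondrial transcripts. They were 1739 and 186 of 3935 genes at a minimum mean of 5 FPKM. Without each library the counts were 2179 to 3162 and 165 to 263. These were lowest without the third library labelled WT and next without the third labelled PKI (2325 and 173). Ppargc1a changed by −0.42 under median-of-ratios scaling and −0.36 under the total without mitochondrial transcripts, past the threshold in both.

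Directions that turned under median-of-ratios scaling were Acad9 −0.11, Atpaf2 −0.16, Bcs1l −0.17, Coa3 −0.056, Cox16 −0.014, Cox17 −0.093, Foxred1 −0.18, Lyrm7 −0.12, Ndufaf1 −0.22, Ndufaf5 −0.020, Ndufaf7 −0.070, Nubpl −0.073, Sco2 −0.063, Sdhaf1 −0.11, Sdhaf2 −0.072, Surf1 −0.16, Tmem126b −0.10, Uqcc1 −0.16 and Uqcc2 −0.091. Under the total without mitochondrial transcripts 16 turned: Acad9 −0.061, Atpaf2 −0.10, Bcs1l −0.11, Cox17 −0.040, Foxred1 −0.12, Lyrm7 −0.076, Ndufaf1 −0.16, Ndufaf7 −0.017, Nubpl −0.038, Sco2 −0.018, Sdhaf1 −0.059, Sdhaf2 −0.015, Surf1 −0.10, Tmem126b −0.047, Uqcc1 −0.11 and Uqcc2 −0.032. The cause was not tested.

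Leaving out 1 library turned the sign of Atpaf1 (−0.074 to 0.026), Cox11 (−0.061 to 0.082), Cox15 (−0.051 to 0.045), Ndufaf1 (−0.016 to 0.11), Ndufaf4 (−0.88 to 0.030), Sco2 (−0.053 to 0.31), Taco1 (−0.12 to 0.050), Tmem70 (−0.39 to 0.37) and Uqcc1 (−0.014 to 0.16), and of the log2 ratios Sco2/Sco1 (−0.49 to 0.11), Uqcc2/Uqcc1 (−0.048 to 0.17), Sdhaf2/Sdhaf1 (−0.092 to 0.13) and Cox17/Cox11 (−0.10 to 0.31). Cox19, Ndufaf2 and Coa5 were called in every fit on deposited values except that Ndufaf2 was not tested at a minimum mean of 5 FPKM. The absolute depth is unknown.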
